A study of Drosophila melanogaster with 2 samples.

Results

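The GstE genes encode the epsilon class of glutathione S-transferases of Drosophila melanogaster. Glutathione S-transferases are enzymes that join the tripeptide glutathione to electrophilic molecules, among them plant toxins, insecticides and the reactive aldehydes left when lipids are oxidised, and so make them soluble and easier to excrete. The epsilon and delta classes are the insect-specific, expanded classes of the family, and most of their members lie in tandem gene clusters. Several of these genes are known targets of CncC, the fly counterpart of the Nrf2 transcription factor, which is held back by Keap1 until oxidants or electrophiles release it.

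The members were the 10 genes GstE1, GstE2, GstE3, GstE5, GstE6, GstE7, GstE8, GstE9, GstE11 and GstE12. They were chosen by gene symbol in the array's probe annotation, and each had 1 probe set that named no other gene, so that 10 of the 13966 non-control probe sets were theirs.

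Poly(A) RNA from the heads of adult males was hybridised to 2 Affymetrix DrosGenome1 arrays, which read a transcript with sets of short oligonucleotide probes. All flies were of the w1118 strain, an inbred laboratory stock that the source labels also write as w118, and both arrays were made from heads at adult day 3. The paraquat array came from flies fed sucrose with 15 mM paraquat for 30 h from adult day 2, and the unexposed array from flies with no paraquat. Paraquat, a weed killer that generates superoxide by redox cycling in the cell, served here as the source of oxidative stress, whose effect on head transcripts was the question of the study. Per the labels, males were gathered within 24 h of eclosion and held in darkness at 25 °C and 70% humidity, about 200 to a bottle, and heads were separated from bodies with a sieve after freezing. The labels place the unexposed flies in food bottles and the paraquat flies on sucrose, and a plain sucrose array was not analysed here, so diet and paraquat cannot be told apart. Each group held 1 array, made from many flies, so no value has a replicate check and no p-value was computed.

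Intensities below were scaled to the same median on both arrays, and an intensity of 477 was taken as the floor of reliable signal (the 40th percentile over all probe sets). A gene was measured when it reached the floor on both arrays. Each log2 ratio, paraquat over unexposed, is given ± 1 array error, an error estimated from the arrays' control probe sets that leaves out the spread between flies and RNA preparations. In bulk heads, fewer cells of a type and less RNA per cell cannot be told apart.

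The GstE genes differed in direction with paraquat. GstE1, GstE6, GstE7 and GstE8 were between 2.85-fold and 5.65-fold higher on the paraquat array, and GstE11 was above the floor on that array alone. GstE12 was 2.40-fold lower and GstE2 1.97-fold lower. GstE3, GstE5 and GstE9 differed by less than 1.5-fold. Of the 9 measured members, 4 were at least 2-fold higher, against 8.15% of the 7425 measured probe sets, and 1 was at least 2-fold lower, against 8.22%. The lower count, 1 of 9, was thus near the share over all measured probe sets. With the further demand that the 95% interval of array error leave out 0, the same counts of 4 and 1 stood beside 5.72% and 6.13% of measured probe sets. The median log2 ratio of the 9 was 0.44, that of GstE9 itself, and the median of all measured probe sets was 0.03. On the same paraquat array, the 3 control probe sets for 18S ribosomal RNA were between 1.89-fold and 2.02-fold lower than on the unexposed array, and the part of this in the results was not tested.

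**Figure D1:**
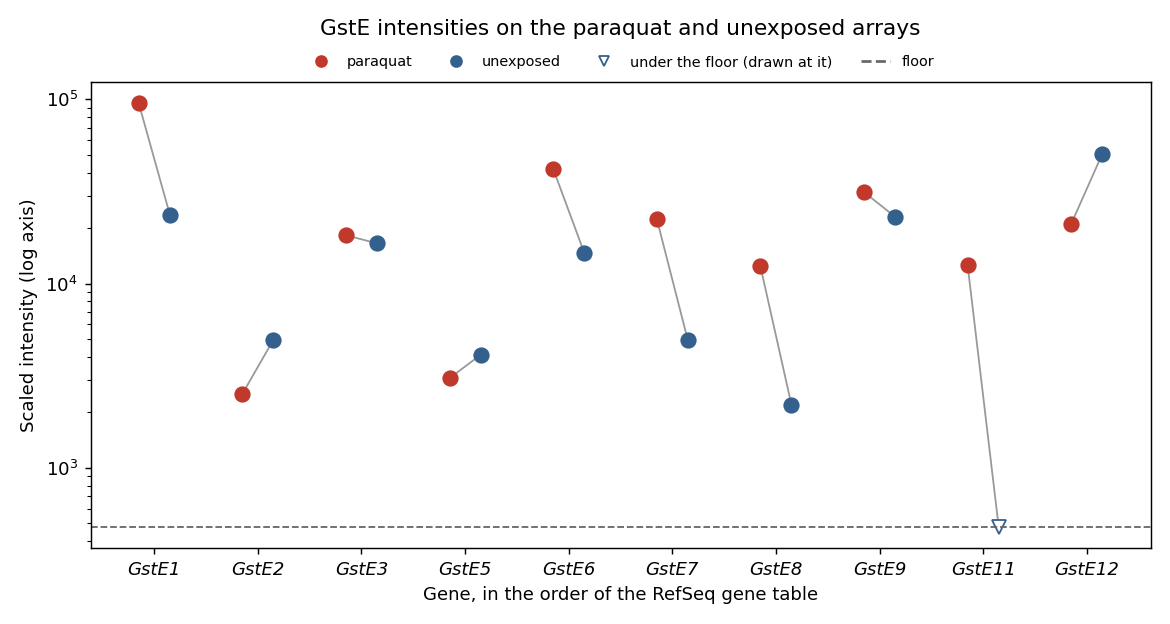
Scaled intensity (log axis) of the 10 GstE genes on the paraquat array (red, left of each pair) and the unexposed array (blue, right). GstE1, GstE6, GstE7, GstE8 and GstE11 stand well apart in favour of paraquat, GstE12 and GstE2 in favour of unexposed, and the unexposed value of GstE11 lay under the floor of 477 and is drawn at it.

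GstE8 had the highest ratio of the measured members, with an intensity of 12401 on the paraquat array, against 2194 on the unexposed array. Its log2 ratio was 2.50 ± 0.27, and 33 of the 7425 measured probe sets, itself included, had a ratio as high. GstE7 had 22414 on the paraquat array, against 4918 on the unexposed array, or 4.56-fold higher (log2 2.19 ± 0.16). GstE8 and GstE7 are adjacent in the genome, and their ratios differed by 0.31 ± 0.31, which is within array error.

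GstE1, an enzyme shown in vitro to conjugate the lipid peroxidation product hydroxynonenal, had 95038 on the paraquat array, against 23670 on the unexposed array. It was 4.02-fold higher (log2 2.01 ± 0.12), a ratio within array error of that of GstE7 (gap 0.18 ± 0.20). GstE6 had 41866 on the paraquat array, against 14680 on the unexposed array, or 2.85-fold higher (log2 1.51 ± 0.12). Its ratio was lower than that of GstE1 by 0.49 ± 0.17, a gap beyond the 95% interval of array error. Of these 4 genes, GstE8 stood nearest the floor, at 4.60 times it on the unexposed array. It also had the largest array error (0.27, against 0.12 to 0.16 for GstE1, GstE6 and GstE7).

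GstE11 had an intensity of 12577 on the paraquat array, against -518 on the unexposed array, a value below 0 that arises when background or mismatch signal exceeds the probe signal. Set against the floor, GstE11 was at least 26.3-fold higher with paraquat. Set against 446, the highest of the control probe sets on the unexposed array whose transcripts are not in the sample, the bound was at least 28.2-fold. The bound depends on the floor, and was at least 23.6-fold against the highest absent control of either array (533), at least 9.40-fold with the floor at the 60th percentile (1339) and at least 3.45-fold with the floor at the 80th (3642). GstE11 is not among the 9 measured members, and with it kept at the floor the median log2 ratio of the 10 was 0.98.

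GstE9 and GstE3 had ratios above 0 and under 1.5-fold. GstE9 had 31325 on the paraquat array, against 23018 on the unexposed array, or 1.36-fold higher (log2 0.44 ± 0.12), and the 95% interval of array error, from 0.21 to 0.68, left out 0. GstE3 had 18259 on the paraquat array, against 16514 on the unexposed array (log2 0.14 ± 0.12), with an interval from -0.10 to 0.39 that held 0. A ratio as high as that of GstE3 was found in 3115 of the 7425 measured probe sets, and one as high as that of GstE9 in 1860.

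The 3 remaining members were lower with paraquat. GstE12 had 21056 on the paraquat array, against 50502 on the unexposed array, or 2.40-fold lower (log2 -1.26 ± 0.12), and 394 of the measured probe sets had a ratio as low. GstE2 had 2517 on the paraquat array, against 4952 on the unexposed array (log2 -0.98 ± 0.26), and stood just short of the 2-fold threshold, which it passed under loess (log2 -1.03) and under scaling to the spiked-in controls (-1.07). In the mosquito Anopheles gambiae the enzyme named GSTE2 is known for breaking down DDT. GstE5 had 3065 on the paraquat array, against 4105 on the unexposed array (log2 -0.42 ± 0.24), and its interval, from -0.89 to 0.05, held 0. By array error alone, 5 of the 9 measured members lay above 0, GstE2 and GstE12 below it, and GstE3 and GstE5 on neither side. The share of all measured probe sets on each side of 0 by this rule was not computed. These counts therefore cannot be set against the arrays as a whole.

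Ordered by ratio, the measured members ran from GstE8 through GstE7, GstE1, GstE6, GstE9, GstE3, GstE5 and GstE2 to GstE12, over 3.76 log2 units. Of the 8 neighbouring pairs in this order, 3 were separated by more than the 95% interval of array error: GstE1 above GstE6, GstE6 above GstE9 (gap 1.07 ± 0.17) and GstE3 above GstE5 (0.57 ± 0.27). The other 5 pairs were not separated, among them GstE2 and GstE12 at the low end (0.29 ± 0.28). The largest of these gaps lay between GstE6 and GstE9, so that the members at least 2-fold higher stood apart from the rest.

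**Figure D2:**
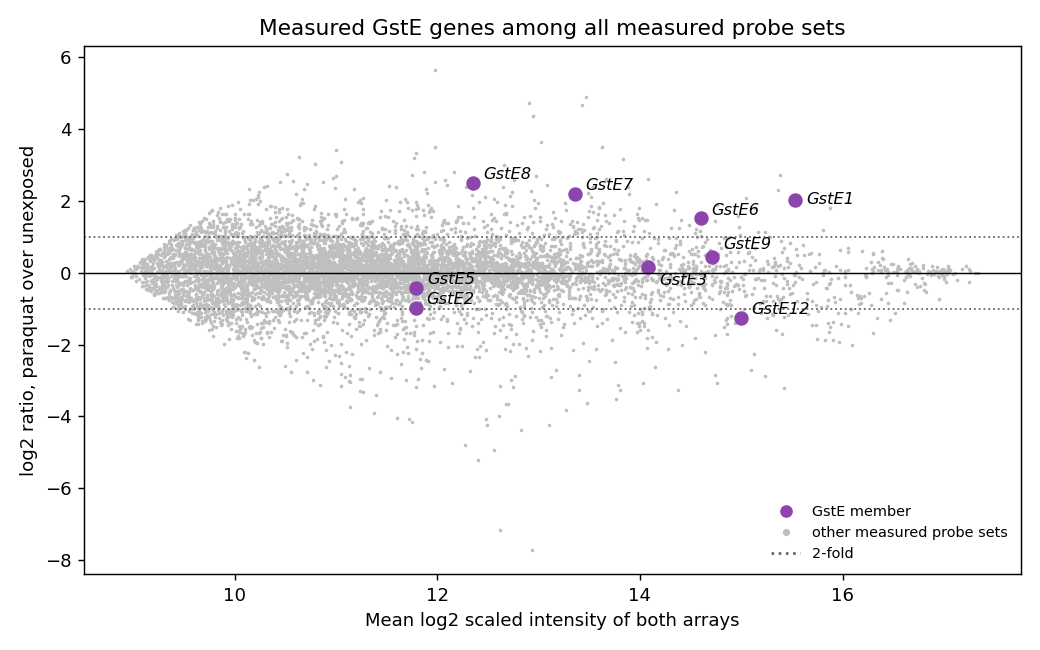
log2 ratio, paraquat over unexposed, against the mean log2 scaled intensity of both arrays, for all 7425 measured probe sets (grey) and the 9 measured GstE genes (purple). GstE8, GstE7, GstE1 and GstE6 lie above the dotted 2-fold line and GstE12 below the lower one, across a wide range of intensity.

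Position in the genome gave a second view of the family. In the RefSeq gene table of Release 6, 8 of the members form an unbroken run of protein-coding genes on chromosome arm 2R together with GstE4 and GstE10, in the order GstE10, GstE1, GstE2, GstE3, GstE4, GstE5, GstE6, GstE7, GstE8 and GstE9. On the same arm, 12 protein-coding genes separate GstE11 from this run and 933 separate GstE12 from GstE11. Within the run, the adjacent GstE6, GstE7 and GstE8 were all at least 2-fold higher with paraquat, while GstE9, next to GstE8, was 1.36-fold higher. GstE1 was at least 2-fold higher beside GstE2, which was 1.97-fold lower. GstE4 (-520 on the paraquat array, -215 on the unexposed array) and GstE10 (-637 and -492 on the same arrays) are no members and were under the floor on both arrays, so no ratio can be given for them. Neighbouring genes of the run thus differed in direction.

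The genes that flank the run did not pass 2-fold. On the side of GstE10, the chitinase-like growth factor gene Idgf5 had a log2 ratio of -0.76 ± 0.19 and the immune-induced peptide gene BomS6 one of -0.22 ± 0.12. On the side of GstE9, the immune adaptor gene imd had 2 probe sets that differed in sign (0.78 ± 0.54 and -0.45 ± 0.57) and Dp1 had a log2 ratio of -0.64 ± 0.13. Beside GstE11, CG43066 had a log2 ratio of 0.65 ± 0.25 and CG30116 had ratios of -0.27 ± 0.21 and -0.74 ± 1.09 over its probe sets, while Dnaaf3 and Pepck2 were under the floor on both arrays. Beside GstE12, CG12848 was lower (-1.24 ± 0.16) by about the amount of GstE12 itself, and Eps-15, on the other side, was higher (1.06 ± 0.28). CG3894, between CG12848 and GstE12, had 1 measured probe set (0.30 ± 0.55) and another under the floor on both arrays, and egg, beyond Eps-15, had no probe set of its own.

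**Figure D3:**
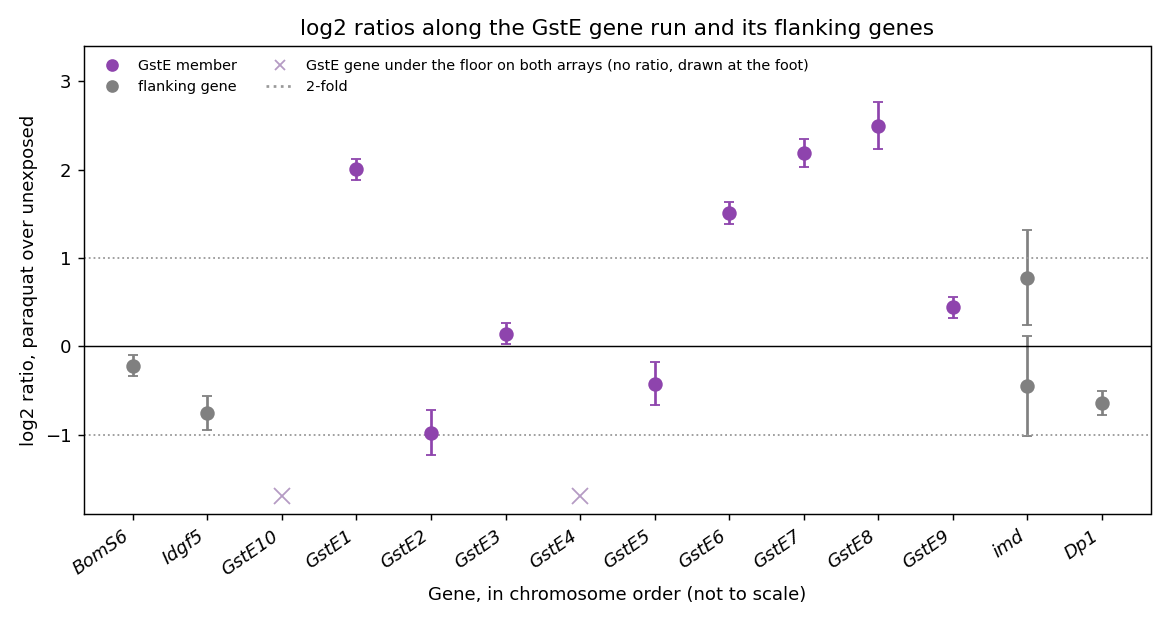
log2 ratio, paraquat over unexposed, ± 1 array error for the run of 10 epsilon-class genes and the genes flanking it on each side, in chromosome order and not to scale. The adjacent GstE6, GstE7 and GstE8 and the separate GstE1 lie above the 2-fold line, GstE2 lies near the lower one, the flanking genes lie between both lines, and GstE4 and GstE10, under the floor on both arrays, have no ratio.

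The probes of a set can also bind transcripts of close paralogs, and the probe sequences were not used here. Whether cross-binding raised the ratio of any one member was not tested.

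The remaining epsilon-class genes had no member at least 2-fold higher. GstE14, also called noppera-bo and needed for ecdysteroid synthesis, had a log2 ratio of -0.98 ± 0.49. The ratio was -0.83 ± 0.62 for gfzf, a zinc finger protein that carries a glutathione S-transferase domain, and -0.08 ± 0.42 for GstE13. The 95% interval of array error held 0 for gfzf and GstE13 and ended at -0.01 for GstE14.

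The delta class is the most like the GstE genes, as the other insect-specific class. Of its 7 measured genes, 5 passed 2-fold upward and 0 downward, with a median log2 ratio of 1.27. GstD2 (4.88 ± 0.27), GstD5 (3.03 ± 0.84) and GstD3 (2.21 ± 0.15) led, followed by GstD10 (1.27 ± 0.83) and GstD8 (1.05 ± 0.27). The median is the ratio of GstD10, whose 95% interval of array error, from -0.36 to 2.91, held 0. On the unexposed array, GstD10 and GstD5 were only 1.42 and 1.31 times the floor. GstD4, under the floor on the unexposed array, was at least 4.17-fold higher, and another 3 delta-class genes were under the floor on both arrays. GstD1, the delta-class enzyme best known for metabolising DDT, was equal on both arrays within array error (-0.04 ± 0.12). The ratio of GstD3 was close to that of GstE7, and that of GstD2 exceeded each ratio among the measured GstE genes. In the omega, sigma, theta and zeta classes, 0 of 9 measured genes passed 2-fold in either direction, by the mean over a gene's measured probe sets. Their log2 ratios ran from -0.79 for GstZ2 (± 0.20) to 0.81 for GstO1 (± 0.45), with GstT4 at 0.70 ± 0.21, GstT3 at 0.49 ± 0.31 and a median of -0.12. A further probe set of GstO2 was above the floor on the unexposed array alone (1409, against -33 on the paraquat array). It was thus at least 2.95-fold lower, while the measured probe sets of GstO2 had log2 ratios of 0.10 ± 0.17 and -0.34 ± 0.19. The sigma-class gene GstS1 had a ratio of -0.25 ± 0.15, and se, which makes a precursor of the red eye pigments, one of -0.12 ± 0.13. The microsomal enzyme gene Mgstl had log2 ratios from -0.25 to -0.07 over 3 probe sets. A difference between classes was not tested, because each group held 1 array.

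**Figure D4:**
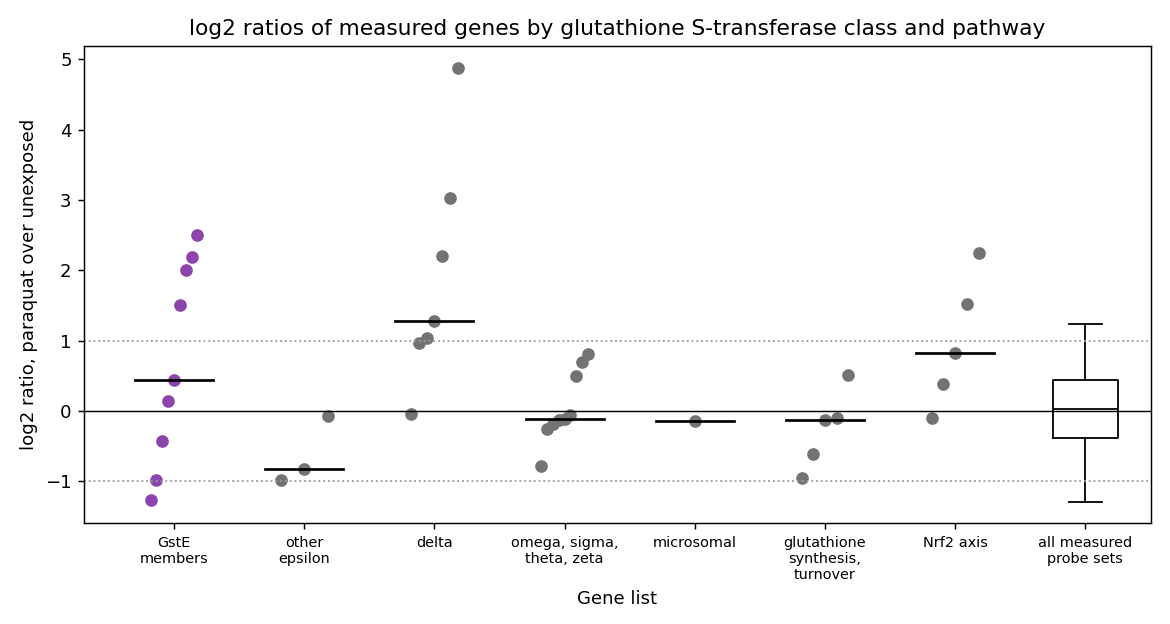
log2 ratios, paraquat over unexposed, of measured genes in the GstE group (purple), the other glutathione S-transferase classes and 2 pathway lists (grey), with medians as black bars, beside all 7425 measured probe sets (box from the lower to the upper quartile, -0.38 to 0.45, whiskers from the 5th to the 95th percentile). Genes past the upper dotted line, at 2-fold, are found in the GstE, delta and Nrf2 lists, with medians of 0.44, 1.27 and 0.82. The delta median is the ratio of GstD10 and the Nrf2 median that of cnc, averaged over measured probe sets that differed widely.

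The genes that supply and clear glutathione did not pass 2-fold in either direction (0 of 5 measured, by the mean over a gene's probe sets). Gclc and Gclm encode the subunits of glutamate-cysteine ligase, the rate-limiting step of glutathione synthesis. Gclm was equal within array error (log2 -0.10 ± 0.14), and Gclc stood so near the floor that its ratio carries little information (-0.13 ± 1.16). MRP, an exporter of glutathione conjugates, had a log2 ratio of 0.51 ± 0.13. Ggt-1, a gamma-glutamyl transpeptidase, averaged -0.95 over probe sets at -1.19 ± 0.85, which is past 2-fold by itself, and -0.71 ± 0.38, with CG4829 at -0.60 ± 0.40. Gss1 and Gss2 of this list, GstT1 of the theta class and Trx-2 of the next list had no probe set of their own in the annotation.

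In the list named Nrf2 axis, 2 of 5 measured genes passed 2-fold upward and 0 downward. These were ref(2)P, the fly p62 autophagy adaptor (45615 on the paraquat array, against 9594 on the unexposed array, log2 2.25 ± 0.13), and the thioredoxin reductase gene Trxr1 (27496 against 9536 on the same arrays, log2 1.53 ± 0.13). The regulators differed less: cnc, which encodes CncC, averaged 0.82 over 3 measured probe sets that ranged from 0.24 to 1.85, its partner maf-S had a ratio of 0.38 ± 0.13, and Keap1 one of -0.10 ± 0.60. A further probe set of cnc was above the floor on the unexposed array alone, at 815, and under it on the paraquat array, at 127. The ratios of ref(2)P and Trxr1 lay within the range of the 4 GstE genes that were at least 2-fold higher.

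Markers of head tissues were checked on the same arrays. All 7 photoreceptor markers with a probe set of their own were measured, with a median log2 ratio of -0.10 and a summed intensity of 450261 on the paraquat array, against 483744 on the unexposed array, and 5 of 7 neuronal markers were measured (median -0.28). Head fat body markers were lower, with 5 of 6 measured, all 5 at least 2-fold lower, and a summed intensity of 91442 on the paraquat array, against 600971 on the unexposed array. The sixth, fit, was under the floor on the paraquat array. Haemocyte markers (median -1.25 over 6 of 7, summed 12838 against 29805 on the same arrays), glial markers (-0.85 over 6 of 6, 104083 against 127934) and muscle markers (-0.40 over 5 of 6, 60977 against 151470) had lower medians and sums as well. The glial list was not uniform, since 3 genes were at least 2-fold lower and loco was higher (log2 1.84 ± 0.24). Most of the glial sum lay in Gs2 (82275 on the paraquat array, against 101176 on the unexposed array, log2 -0.30 ± 0.12). The largest part of the muscle sum lay in Mlc2 (29008 on the paraquat array, against 104443 on the unexposed array). Male reproductive tract markers, foreign to the head, were at or above the floor for 1 of 11 genes on the paraquat array and 9 of 11 on the unexposed array, with summed intensities of 2290 against 33431. The count of 9 includes Acp26Aa (479), Acp53Ea (517) and Acp36DE (557), which lay just above the floor of 477 on the unexposed array. Their detection on the unexposed array is therefore uncertain. Of 7 gut markers, 2 were measured and 4 were under the floor on both arrays (summed 6892 against 10067). Malpighian tubule markers were under the floor on the unexposed array for all 4 genes with a probe set, and 1 of them reached it on the paraquat array (summed 1774 against 1278). The summed values of all these marker lists except the Malpighian tubule list were thus lower on the paraquat array. This includes the photoreceptor, gut and neuronal sums, the last at 26730 on the paraquat array, against 31744 on the unexposed array. GstE12 and GstE2 were lower as well, while GstE1, GstE6, GstE7, GstE8 and GstE11 were higher. The part of these marker differences in the results was not tested.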

How the data were processed

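Heads of paraquat-fed and unexposed male flies were measured on 2 arrays, 1 a group, grouped by sample title. The deposited values are linear intensities, 1 per probe set, some below 0. From the values, the authors scaled both arrays to a mean of 2500, taken without the top and bottom 2% of probe sets. Which software summarised the probes, and with which genome build, was not given in the sources used here. Among 13966 non-control probe sets, 12443 had 1 symbol in the platform annotation of 2016, 327 several and 1196 none. Of the 12443, 12394 matched the RefSeq gene table (Release 6), which was used for names and gene order, with no coordinates printed.

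Both arrays were scaled to their common median (825.2, factors 0.99 for paraquat and 1.01 for unexposed). The floor was the 40th percentile of the mean scaled intensity, and log2 was taken after it was set. Array error combined the SD of absent controls (358.3, 46 values) with the SD of log2 ratios of 9 spiked-in controls (0.12). It was 1.54 at the floor on both arrays. The number of arrays limits the precision. The ratio and interval code was run on simulated data with noise drawn from this same error. That run checks the code only and cannot show whether the array error is right for these arrays.

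Members and lists were chosen with earlier results of these data known. Named are all members, listed genes past 2-fold or among the 4 furthest from 0 in a list and genes flanking the members. A planned search for probe sets nearest to members in level was left out, because levels of different probe sets are not comparable. GstE4, GstE10, GstD1, GstO2, GstS1, se, Keap1, Gclm, loco, Gs2, Mlc2, fit, Acp26Aa, Acp36DE and Acp53Ea were named after their values were seen. Python 3.11.15, numpy 2.4.6, pandas 2.3.3 and statsmodels 0.14.6 (loess, fraction 0.4) were used.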

Additional observations from a re-analysis of the deposited data

How the results depend on the processing

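Alternatives were the deposited values unscaled, quantile normalization, loess, floors at the 60th and 80th percentiles and at the highest absent control (533), a pseudocount in place of the floor, a 1.5-fold threshold and a demand on array error. Scaling to the 9 spiked-in controls was added after the data were seen and moved the median of all measured probe sets to -0.06. A floor keeps or drops a gene without changing its ratio. Of 45 member ratios recomputed under the other settings, 42 moved by less than their array error, 3 moved further under quantile normalization (GstE6 1.66, GstE9 0.58, GstE12 -1.10) and 0 changed sign. The count at least 2-fold higher was 3 of 6 with the floor at the 80th percentile, against 5.68% of measured probe sets. It was 5 of 10 with the pseudocount, against 5.68% of all 13966 probe sets, and 4 of 9 under every other 2-fold setting. The count at least 2-fold lower became 2 of 9, with GstE2 added, under loess (8.69% of measured probe sets) and spiked-in scaling (9.43%). At 1.5-fold, 4 of 9 were higher and 2 of 9 lower, and the share over all measured probe sets was not computed. The members' median log2 ratio became 0.58 under quantile normalization. It became 0.98 with the floor at the 80th percentile, where GstE2, GstE5 and GstE8 dropped out, and 0.96 with the pseudocount, which brought GstE11 in. The bound of GstE11 was at least 9.40-fold and 3.45-fold with the floors at the 60th and 80th percentiles. With 1 array a group, no replicate could be left out and no paired analysis was possible because each group held 1 sample.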
